A study of Mus musculus with 30 samples.

Results

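The 8 genes described here are transcripts of macroglia, listed by name among the 45317 gene symbols of the count table. The astrocyte genes are *Gfap*, *Aqp4*, *Slc1a2*, *Slc1a3* and *Sparcl1*, and the oligodendrocyte genes are *Mbp*, *Mobp* and *Mog*. They were read in sorted monocytes and macrophages, cells for which most of them are not markers. A count records RNA of the gene in the sorted sample, and not that it came from glia. That RNA may have been taken up, been free in the suspension, come from another cell in the gate or been made by the cell itself. These sources cannot be told apart in counts of bulk RNA. The comparisons ask where this RNA was found, brain against blood, and whether brain cells that carried tumor-derived GFP held more of it than GFP-free cells of the same mouse.

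All cells came from 4 tumor-bearing C57BL6.CCR2RFP/WT mice, aged 12 to 18 weeks, in which 1 copy of the chemokine receptor gene *Ccr2* carries the fluorescent protein RFP. GL261.BpalmGFP cells, a mouse glioma line made by lentiviral transduction to anchor GFP in its membranes, had been implanted in the striatum 4 weeks before. Blood gave Ly6Chigh and Ly6Clow monocytes from mice 22, 23 and 24. The perfused brain gave monocytes from mice 22, 24 and 26 and CCR2high and CCR2low macrophages from all 4 mice, each sorted as GFPneg or GFPpos. There was no brain without a tumor and no blood from a mouse without a tumor, and the labels name brain as the tissue of the blood samples too. GFP marks membrane of the tumor line, not of astrocytes or oligodendrocytes. Brain cells were released with dispase and collagenase and passed through Percoll, while blood cells were not, so that compartment and handling cannot be told apart. In bulk samples, fewer cells of a type and less RNA per cell cannot be told apart either.

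Astrocytes clear glutamate from the synapse, regulate water and ion balance and cover blood vessels with their endfeet, and they raise intermediate filament proteins when the tissue is injured or invaded by a tumor. Oligodendrocytes wrap axons in myelin, and several of their mRNAs are carried out along their processes and translated at the myelin sheath. Microglia and infiltrating macrophages engulf dead cells, synapses and myelin debris, so that glial material inside such cells is a familiar sight in damaged brain.

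The 28 replicates held 1553616 to 5689644 gene counts each (median 2140229.5). Normalized read counts are given as CPM, which set each count against the library size after TMM scaling, and 1 read corresponded to less than 1 CPM everywhere. The limit that a count of 0 allows, 3 counts, was 0.6271 to 1.757 CPM in a blood replicate and 0.6005 to 2.043 CPM in a brain replicate, and it covers counting error only because reads carried no molecular identifiers. Spike-in RNAs made up 0.2838% to 13.27% of the counts, with the highest share in Ly6Clow monocytes of mouse 23. GFPpos monocytes of mouse 22 were sequenced as a pair of libraries that stood apart in these genes and were summed. The first held 81 reads of *Slc1a2* and 0 of the other 7 genes, with 8.679% spike-in counts. The second held 9 reads of *Slc1a2*, 46 of *Gfap*, 113 of *Slc1a3*, 173 of *Sparcl1* and 243 of *Mbp*. The mean, the fold, the pairs and the calls of *Slc1a2* that include this replicate are therefore also given without it.

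Of the 8 genes, 6 were among the 11566 that passed the filter on low counts. *Aqp4* and *Mobp* did not pass. The 5 of the 6 that were at 0 in blood could pass only through the brain samples and so had to differ, which means that their number is a description and supports nothing.

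For 3 of the genes, the bases just before the RefSeq start of transcription (GRCm38.p6) are shown, since these are the sequences from which glia read them: *Gfap* and *Slc1a3* as the astrocyte genes found in most brain replicates, and *Mobp* as an oligodendrocyte gene at 0 in blood. They are written 5′ to 3′ on the gene's strand, and capitals mark matches, on either strand, to the TATA box, spelled TATAAA, or to the core that SOX factors bind, which is spelled ACAAAG.
Gfap (chr11:102897201-102897450, minus strand): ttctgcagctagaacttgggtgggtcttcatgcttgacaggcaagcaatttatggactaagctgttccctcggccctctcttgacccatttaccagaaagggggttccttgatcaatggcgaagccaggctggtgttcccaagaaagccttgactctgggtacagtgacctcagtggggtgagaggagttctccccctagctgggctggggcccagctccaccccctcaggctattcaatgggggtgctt
Slc1a3 (chr15:8710808-8711057, minus strand): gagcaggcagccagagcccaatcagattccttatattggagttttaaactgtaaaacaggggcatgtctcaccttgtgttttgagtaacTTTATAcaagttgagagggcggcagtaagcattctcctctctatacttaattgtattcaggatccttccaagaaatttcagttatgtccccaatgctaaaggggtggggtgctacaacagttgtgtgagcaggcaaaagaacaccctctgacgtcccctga
Mobp (chr9:120149492-120149706, plus strand, ending 35 bases before the start): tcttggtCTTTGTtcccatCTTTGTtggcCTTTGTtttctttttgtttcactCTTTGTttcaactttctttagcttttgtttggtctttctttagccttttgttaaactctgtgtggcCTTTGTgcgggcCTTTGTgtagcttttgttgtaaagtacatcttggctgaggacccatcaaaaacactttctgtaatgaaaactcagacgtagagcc
The *Gfap* window held neither motif. *Slc1a3* held 1 TATA box match, a motif found in 12.4% of 32851 mouse promoters cut to the same 250 bases. *Mobp* held 6 matches to the SOX core, which 16.5% of these promoters contain at least once. Only 1 of them held at least 6, the *Mobp* promoter itself, whose window shown here is 35 bases shorter. A match is a run of letters and not a measured site.

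Per length of transcript, the brain cells held most *Mbp*, with 7.68 ± 2.52 RPKM (reads per kilobase of exon per scaled library size; SD, n = 22). *Sparcl1* followed with 5.35 ± 4.95 RPKM, *Slc1a3* with 3.5 ± 1.82, *Mog* with 2.1 ± 2.75 and *Gfap* with 1.36 ± 0.838. *Mobp* was at 0.304 ± 0.265, *Slc1a2* at 0.203 ± 0.34 and *Aqp4* at 0.106 ± 0.273 RPKM. Of the 7 genes other than *Mbp*, each brain replicate held between 3 and 7, with a median of 6, and 3 of the 22 replicates held all 7. The blood replicates held 0 of them.

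**Figure D1:**
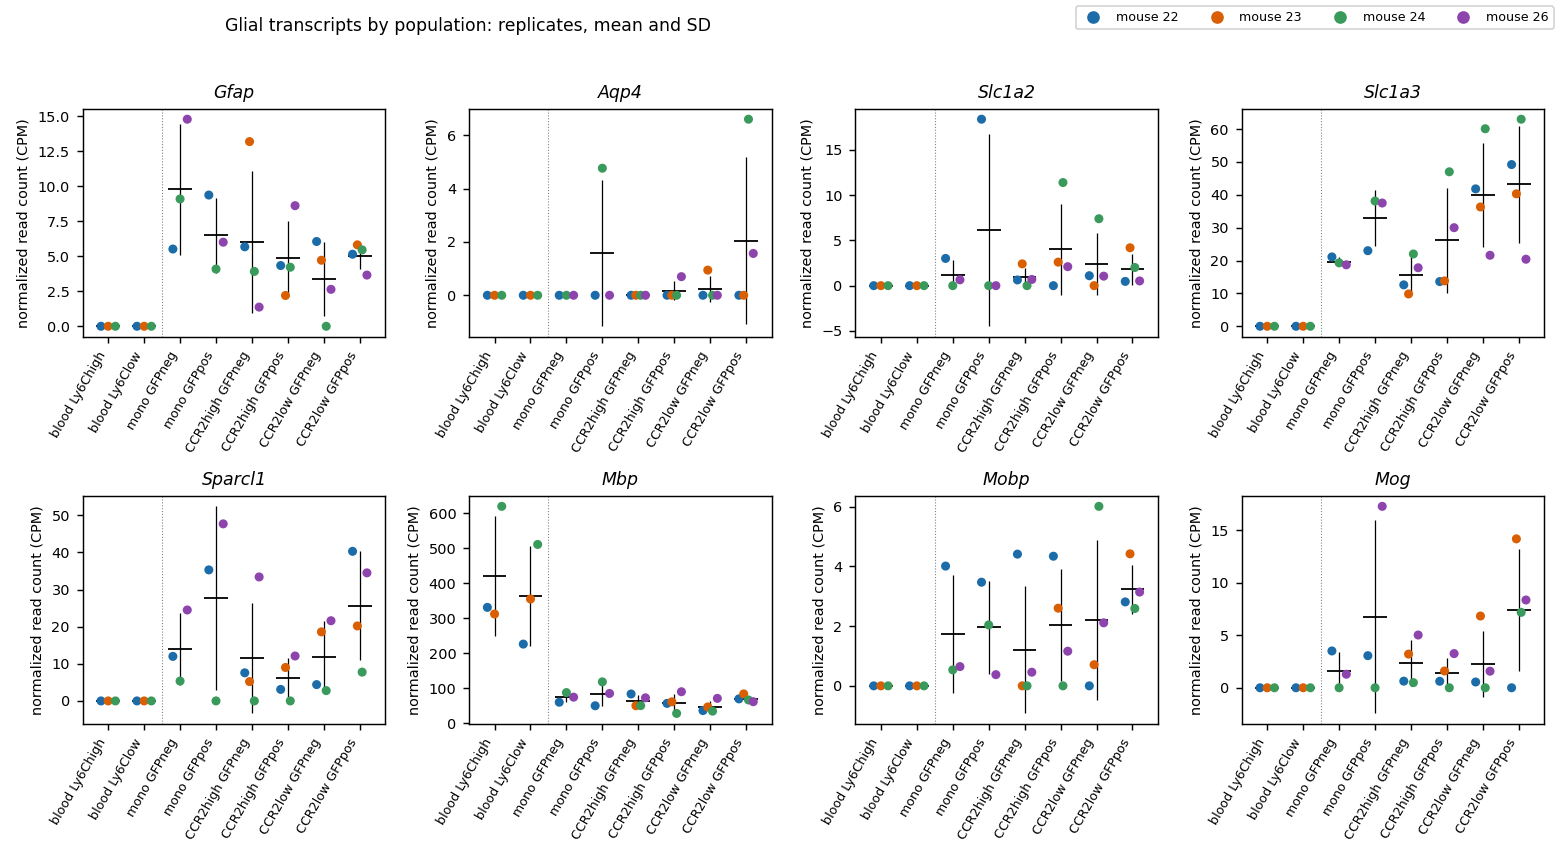
Normalized read count (CPM, linear axes of different height) of the 8 glial transcripts in 2 blood and 6 brain populations, to the left and right of the dotted line; points are replicates colored by mouse, horizontal bars are means and vertical bars are SD. A reader should see 7 genes at 0 in all 6 blood replicates, *Slc1a3* above 0 in all 22 brain replicates, and *Mbp* at 226 CPM or more in blood and at 118 CPM or less in brain.

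*Slc1a3*, which encodes the glutamate transporter GLAST, was the astrocyte gene read most evenly in the brain cells. It lies on chromosome 15 (8634124 to 8710764, minus strand, GRCm38). In GFPneg monocytes it had 21.1, 19.3 and 18.7 CPM in mice 22, 24 and 26, and in GFPpos monocytes 23, 38.1 and 37.5 CPM. In mice 22, 23, 24 and 26, GFPneg CCR2high macrophages had 12.6, 9.83, 22 and 17.8 CPM and GFPpos ones 13.6, 13.8, 47 and 30 CPM. The CCR2low macrophages of the same mice had 41.8, 36.3, 60.1 and 21.6 CPM without GFP and 49.2, 40.3, 63 and 20.4 CPM with it. All 22 brain replicates therefore lay above the 6 blood replicates, which were at 0. The brain mean of 29.9 ± 15.5 CPM (SD, n = 22) was at least 163-fold higher than blood, taking 3 counts over the 6 blood replicates as the limit (adjusted p = 3.09e-10, quasi-likelihood test of edgeR, Benjamini-Hochberg adjusted over all genes). In this comparison 25.8% of all genes were called higher and 13.8% lower in brain, and in 4.75% all brain replicates lay above all blood replicates. The annotation places a second gene model, *Gm37310*, on the same strand within *Slc1a3*, and reads on both would have been left out of the counts.

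*Gfap* encodes the intermediate filament of astrocytes and lies on chromosome 11 (102887336 to 102900912, minus strand). GFPneg monocytes had 5.52, 9.1 and 14.8 CPM and GFPpos monocytes 9.38, 4.09 and 6.01 CPM. The values of GFPneg CCR2high macrophages were 5.68, 13.2, 3.92 and 1.37 CPM and those of GFPpos ones 4.34, 2.2, 4.22 and 8.62 CPM. CCR2low macrophages showed 6.06, 4.72, 0 and 2.64 CPM without GFP and 5.15, 5.82, 5.46 and 3.66 CPM with GFP. *Gfap* was thus found in 21 of 22 brain replicates, at a level of 5.73 ± 3.53 CPM (SD, n = 22) that was at least 31.2-fold higher than in blood (adjusted p = 7.86e-06). No population stood out, and the ranges of all 6 overlapped with those of their neighbours in the order of means.

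*Sparcl1*, a secreted matricellular protein made by astrocytes and also by vascular cells, lies on chromosome 5 (104079111 to 104113733, minus strand). Its means ran from 2.65 to 29 CPM over the mice and from 6.05 to 27.6 CPM over the brain populations. The 6 replicates of mouse 24 held 0 to 7.76 CPM (mean 2.65), while the 6 replicates of mouse 26 held 12.1 to 47.7 CPM (mean 29). These mice did not overlap. Mouse 22 spread from 3.1 to 40.3 CPM (n = 6) and mouse 23 from 5.21 to 20.2 CPM (n = 4). The gene was above 0 in 19 of 22 brain replicates, and its mean of 15.7 ± 14.5 CPM (SD) was at least 85.7-fold higher than in blood (adjusted p = 0.000184).

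*Slc1a2* encodes GLT-1, the transporter that takes up most of the glutamate in the forebrain, and lies on chromosome 2 (102658659 to 102790784, plus strand). It was read in 16 of 22 brain replicates but over 3 counts in 9. Its median was 0.87 CPM, and its highest value, 18.4 CPM, was that of GFPpos monocytes of mouse 22, of whose 90 reads 81 came from the library with no other glial transcript. The brain mean of 2.66 ± 4.46 CPM was at least 14.5-fold higher than blood (adjusted p = 0.00981), and 1.92 ± 2.83 CPM (n = 21) and at least 10.5-fold without that replicate. Without that replicate GFPpos monocytes were at 0 and the averaged comparison lost its call (fitted log2 difference 4.48, adjusted p = 1). A population at 0 has no finite estimate in this fit, so these values do not measure the difference. The brain replicates were also taken as 1 group, a comparison chosen after the data were seen. The fitted log2 difference was then 5.95 (adjusted p = 0.00501 in edgeR) with the replicate and 5.42 (adjusted p = 0.00532) without it. Blood was at 0 in both fits, so 5.95 and 5.42 do not measure the difference either.

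*Aqp4*, the water channel of astrocyte endfeet, was at 0 in 17 of 22 brain replicates. Of the 5 replicates that held it, 4 were GFPpos. They were monocytes of mouse 24 with 4.77 CPM, CCR2high macrophages of mouse 26 with 0.699 CPM and CCR2low macrophages of mice 24 and 26 with 6.61 and 1.57 CPM, and the GFPneg replicate was CCR2low macrophages of mouse 23 with 0.944 CPM. The largest of these values rested on 23 reads. When every gene with at least 1 count was tested, the fitted log2 difference of GFPpos from GFPneg cells was 3.43 (standard error 1.21, unadjusted p = 0.00743 in edgeR). It did not pass adjustment over 22327 genes (adjusted p = 0.888). GFPneg monocytes and GFPneg CCR2high macrophages were at 0 and had no finite estimate. Neither 3.43 nor its standard error therefore measures the difference.

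Among the oligodendrocyte genes, *Mog* and *Mobp* were at 0 in blood and *Mbp* was not. *Mog* encodes a glycoprotein on the outer surface of myelin and lies on chromosome 17 (37010743 to 37023398, minus strand). It was above 0 in 17 of 22 brain replicates with a median of 1.59 CPM. Mice 23 and 26 held most of it, with 1.6 to 14.2 CPM (n = 4) and 1.29 to 17.3 CPM (n = 6), against 0 to 3.51 CPM in mouse 22 and 0 to 7.19 CPM in mouse 24 (n = 6 each). The brain mean was 3.58 ± 4.69 CPM and at least 19.5-fold higher than blood (adjusted p = 0.00342). *Mobp*, which encodes a protein of compact myelin, lies on chromosome 9 (120149707 to 120181484, plus strand), with *Gm38642* on the same strand. It was above 0 in 18 of 22 brain replicates, between 0 and 6.01 CPM with a mean of 2.08 ± 1.82, at least 11.4-fold higher than blood. Over all genes with a count, the edgeR test of *Mobp* against blood gave an adjusted p of 0.0025. With 0 reads in blood it could differ only upward, so this value is a description too.

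*Mbp*, myelin basic protein, went the other way. Ly6Chigh monocytes of mice 22, 23 and 24 had 331, 312 and 620 CPM, and Ly6Clow monocytes 226, 355 and 511 CPM. In GFPneg and GFPpos brain monocytes it had 59.7, 87.3 and 74.2 CPM and 49.6, 118 and 84.8 CPM. CCR2high macrophages held 49.7 to 83.3 CPM without GFP and 27.7 to 89.7 CPM with GFP, and CCR2low macrophages 34.2 to 70.7 CPM and 61.2 to 83.5 CPM (n = 4 each). Every brain replicate was below every blood replicate, a pattern that 1.58% of genes showed. Blood, with 393 ± 145 CPM (SD, n = 6), exceeded brain, with 65 ± 21.3 CPM (SD, n = 22), by 6.04-fold, and each brain population by 4.67-fold to 8.4-fold (log2 difference -2.59, standard error 0.19, 95% interval -2.99 to -2.19, adjusted p = 6.01e-11). The median of all genes was 0.18 on this scale. The library of Ly6Clow monocytes that failed the quality rule held 322 reads of *Mbp* and 0 of the other 7 genes.

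The separation of *Mbp* depended on the scaling. When libraries were scaled by their spike-in RNAs, the median of all genes moved to 0.681. The difference of *Mbp* was then -2.27, and blood replicates ran from 17.4 to 1800 CPM and brain replicates from 8.9 to 173 CPM, so that 20 of the 22 brain replicates reached the lowest blood replicate. That replicate, Ly6Clow monocytes of mouse 23, had 13.27% spike-in counts, against 0.2904% to 2.47% in the other blood replicates. The count of 20 is set by it. The spike-ins had been added to a set amount of RNA and not to a set number of cells. The *Mbp* locus spans 110492 bases and has 16 annotated transcripts, of which 11 begin 79324 to 79434 bases downstream of the first start. As background, the upstream start gives the Golli proteins, which are found in immune cells, and the downstream start gives classical myelin basic protein of oligodendrocytes. Counts per gene do not separate them. Reads of *Mbp* in brain samples can thus not be assigned to glia, and *Mog* and *Mobp* are the oligodendrocyte genes here whose level in blood was 0.

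Each brain population was also compared with blood on its own, where the same 6 blood replicates served all comparisons. In GFPneg monocytes 4 of the glial genes were called higher and *Mbp* lower, beside 16.8% and 3.8% of all genes. The other call counts were 5 higher in GFPpos monocytes (all genes 21.8% higher, 6.57% lower), 4 in GFPneg CCR2high macrophages (19% and 7.14%), 5 in GFPpos CCR2high macrophages (19.9% and 8.05%), 5 in GFPneg CCR2low macrophages (20.3% and 7.63%) and 5 in GFPpos CCR2low macrophages (21.6% and 8.97%). *Mbp* was called lower in all 6. In GFPpos monocytes the *Slc1a2* call (adjusted p = 0.00634) rested on mouse 22 with 90 reads, since mice 24 and 26 had 0, and without that replicate 4 genes were called higher there. *Slc1a2* made the difference between 4 and 5, with an adjusted p of 0.092 in GFPneg monocytes and 0.0745 in GFPneg CCR2high macrophages. Whether these populations differ from the others in *Slc1a2* is a separate question, and 0 of the comparisons among brain cells called it. *Mog* in GFPneg monocytes was near the threshold (adjusted p = 0.0436). When each of the 28 replicates was left out in turn, 13 of the fits no longer called it, with adjusted p from 0.0506 to 0.251, the highest without GFPneg monocytes of mouse 22, and each of the 6 blood replicates was among the 13. *Mog* also lost its call in GFPpos CCR2high macrophages without Ly6Chigh monocytes of mouse 24 (0.0602) or its own replicate of mouse 26 (0.0891), and in GFPneg CCR2low macrophages without its own replicate of mouse 23 (0.121). *Slc1a2* lost it without Ly6Chigh monocytes of mouse 24 in GFPneg and GFPpos CCR2low macrophages (0.0514 and 0.058), in the latter also without its own replicate of mouse 23 (0.0895), and gained it in GFPneg CCR2high macrophages without GFPpos monocytes of mouse 22 (0.0449).

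GFPpos and GFPneg cells of the same mouse formed 11 pairs, 3 of monocytes and 4 each of CCR2high and CCR2low macrophages. None of the 6 tested genes was called in monocytes, in either macrophage population or in the average over the 3 cell types, and in each of these 4 comparisons 0% of all genes were called. At an unadjusted p under 0.05 there were 739, 69, 184 and 474 genes, in this order, and DESeq2 called 19, 1, 5 and 19 genes. With the mouse as a replicate block, edgeR called 3 genes in the average, 0 of them members.

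*Slc1a3* was the member with the most even sign. GFPpos exceeded GFPneg cells in 10 of 11 pairs with TMM scaling, as did 1.88% of genes in at least 10 of 11, but in 5 of 11 pairs when libraries were scaled by spike-ins. The averaged log2 difference was 0.53 (standard error 0.28, 95% interval -0.05 to 1.11, unadjusted p = 0.0717, adjusted p = 1), and it was 0.12 when spike-ins set the scale, where the median of all genes was -0.43 instead of 0.023. The exception among the pairs was CCR2low macrophages of mouse 26, with 21.6 CPM without and 20.4 CPM with GFP. By cell type the differences were 0.73 in monocytes (-0.51 with spike-in scaling), 0.74 in CCR2high and 0.11 in CCR2low macrophages.

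For the other genes the pairs were divided. *Gfap* was higher with GFP in 6 pairs and lower in 5 (3 and 8 with spike-in scaling), with an averaged difference of -0.11 (95% interval -1.14 to 0.93). *Sparcl1* was higher with GFP in 7 pairs, lower in 3 and at 0 in both cells of 1 pair (5 and 5 with spike-in scaling), with 0.4 (-1.02 to 1.83). *Slc1a2* was higher in 5 and lower in 5 (4 and 6 with spike-in scaling), with 1.31 (-0.63 to 3.24). Without GFPpos monocytes of mouse 22 it was higher in 4 and lower in 5 of 10 pairs. The averaged difference of *Slc1a2* was then -1.08, which is not an effect size, since GFPpos monocytes at 0 have no finite estimate. *Mbp* was higher in 7 and lower in 4 pairs, with 0.22 (-0.2 to 0.64), which became -0.22 with spike-in scaling. The oligodendrocyte genes with no reads in blood were divided as well, *Mobp* with 6 pairs higher and 4 lower, and *Mog* with 4 higher and 6 lower and an averaged difference of 0.99 (-0.73 to 2.72). All intervals given for GFPpos against GFPneg cells come from the fit without the mouse, so they do not use the pairing. Those of *Slc1a2*, *Slc1a3*, *Sparcl1* and *Mog* include changes of 1 or more on the log2 scale in GFPpos cells, so changes of that size lay within the error of that fit. With the mouse as a replicate block, their averaged differences were 1.15, 0.5, 0.36 and 0.95.

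**Figure D2:**
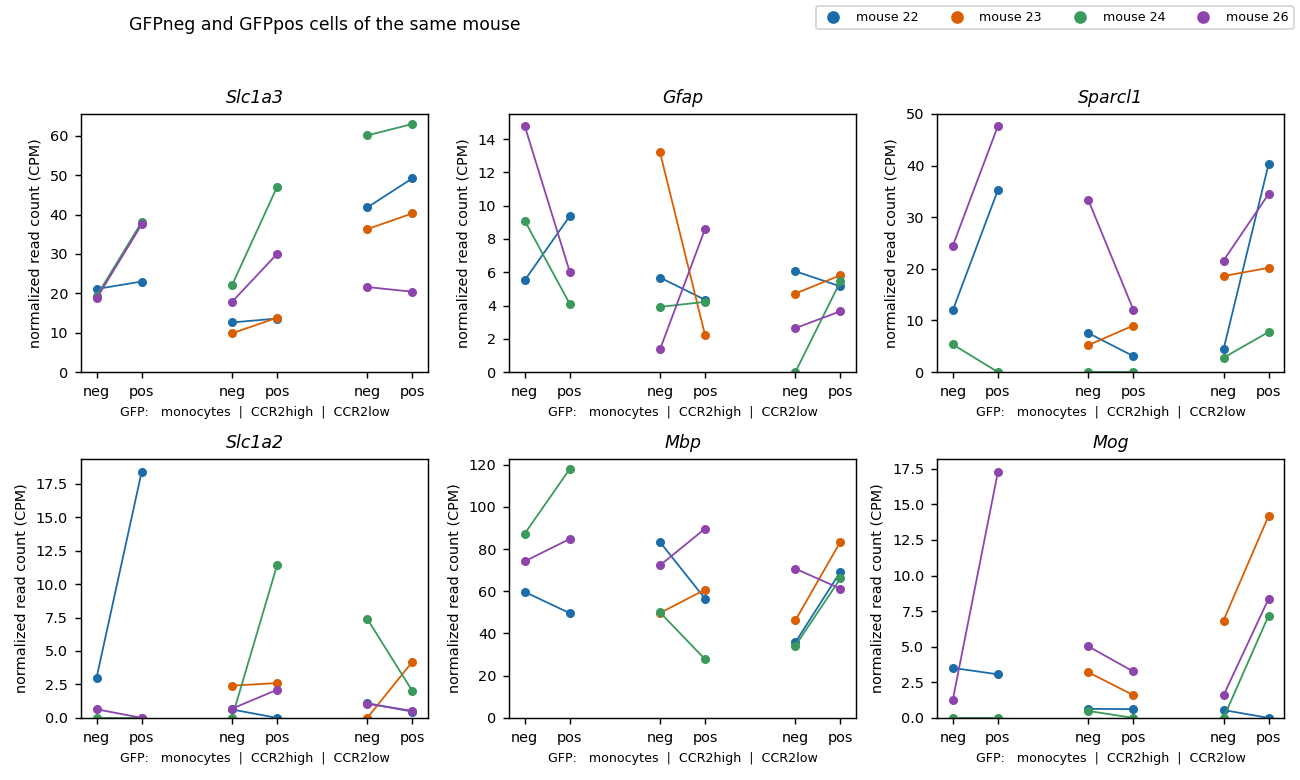
Normalized read count (CPM, linear axes) of the 6 tested genes in GFPneg and GFPpos cells; each line joins the cells of 1 mouse, colored by mouse, for monocytes, CCR2high and CCR2low macrophages from left to right. Lines of *Slc1a3* rise in 10 of 11 pairs with this scaling, while those of *Gfap* rise in 6 and fall in 5, and 1 GFPpos monocyte replicate, of mouse 22, carries the highest *Slc1a2* value at 18.4 CPM.

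*Mog* showed the widest contrast between cell types. In CCR2high macrophages it was lower with GFP in 4 of 4 pairs, with 1.6 against 3.21 CPM in mouse 23 and 3.26 against 5.03 in mouse 26, while mouse 22 had 1 read in each cell (0.619 against 0.631 CPM) and mouse 24 had 0 against 1 read. In CCR2low macrophages it was higher with GFP in 3 of 4 pairs, with 14.2 against 6.84 CPM in mouse 23, 7.19 against 0 in mouse 24 and 8.37 against 1.58 in mouse 26. The test of whether the GFP difference varied among the 3 cell types did not pass for it (adjusted p = 1) or for any of the other 5 genes (adjusted p = 1 each), and 0 of the 11566 genes passed.

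Across the brain, the order of the populations by mean *Slc1a3* was GFPpos CCR2low macrophages (43.2 ± 17.8 CPM), GFPneg CCR2low macrophages (40 ± 15.9), GFPpos monocytes (32.9 ± 8.55), GFPpos CCR2high macrophages (26.1 ± 15.9), GFPneg monocytes (19.7 ± 1.23) and GFPneg CCR2high macrophages (15.6 ± 5.44; SD, n = 3 for monocytes and 4 for macrophages). All neighbours in this order overlapped, as they did for each of the other 7 genes in the order of its own means. CCR2low macrophages had more *Slc1a3* than CCR2high macrophages of the same mouse and GFP class in 7 of 8 pairs, a count of at least 7 that 6.93% of genes reached, and in 8 of 8 with spike-in scaling. The fitted log2 difference was 1.05 (standard error 0.33, 95% interval 0.37 to 1.72, unadjusted p = 0.00414), and it did not pass adjustment (adjusted p = 0.83, and 0.212 to 1 over the alternatives). In this comparison 0% of genes were called by edgeR's test, 415 had an unadjusted p under 0.05, and DESeq2 called 24, while a replicate block by mouse gave 13 genes and an adjusted p of 0.307 for *Slc1a3* (difference 1.09). *Sparcl1* and *Mobp* were higher in CCR2low macrophages in 6 of 8 pairs each, *Gfap* and *Slc1a2* in 5 and *Mog* in 4 (with spike-in scaling *Mobp* in 5, *Slc1a2* in 4 and *Mog* in 5), and *Mbp* was higher in CCR2high macrophages in 5.

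Between macrophages and monocytes of the brain, 2.38% of all genes were called (275 genes) and 0 of the 6 glial genes. Monocytes had 8.16 ± 3.88 CPM of *Gfap* (SD, n = 6) and macrophages 4.82 ± 3.04 (SD, n = 16), a log2 difference of -0.75 (95% interval -1.86 to 0.35, adjusted p = 0.724). For *Mbp* the values were 78.9 ± 24 and 59.8 ± 18.4 CPM (log2 difference -0.41, 95% interval -0.87 to 0.06, adjusted p = 0.584). These differences were 0.03 and 0.43 when spike-ins set the scale, where the median of all genes stood at 0.777.

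**Figure D3:**
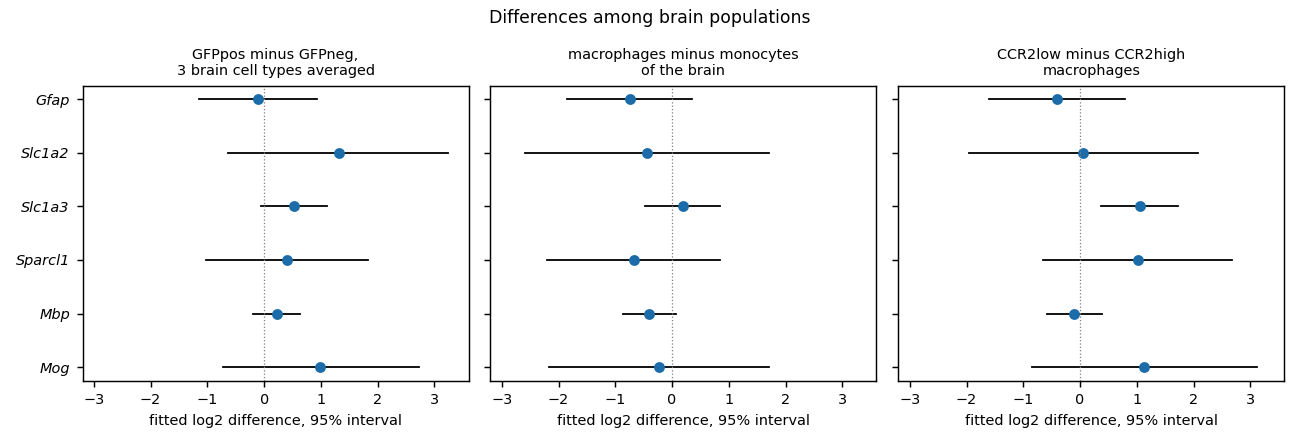
Fitted log2 differences (horizontal axis, with 95% intervals) of the 6 tested glial genes in 3 comparisons among brain populations, from the fit over all 8 populations with TMM scaling. The interval of *Slc1a3* lies above 0 in CCR2low against CCR2high macrophages (0.37 to 1.72), which did not pass adjustment over all genes, and the other 17 intervals include 0.

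Other genes of the same glia were read in the same samples. Over all genes, 25.8% were called higher and 13.8% lower in brain, the shares to hold beside the calls of the lists below. Of 17 further astrocyte genes in the table, 10 could be tested and 10 were called higher in brain. Of these, 5 had no read in blood and so could pass the filter only through brain, which makes their calls a description. The other 5 had reads in blood, but a gene with few reads there could also pass only through brain. Both limits hold for the lists that follow too, with the number of genes without a read in blood given for each. *Aldoc*, the brain form of aldolase, had 81.3 CPM in brain and 20.4 in blood (log2 difference 2.74, adjusted p = 8.29e-07), *Clu*, a secreted chaperone, 48.4 and 3.86 CPM, and *Aldh1l1*, a folate enzyme used to mark astrocytes, 15.5 and 0.589 CPM. Blood was therefore not empty of all genes on this list, and its summed level was 4.69 to 83.3 CPM in blood and 80 to 544 CPM in brain. Of 18 further oligodendrocyte genes, 11 could be tested and 10 were called higher (6 of the 7 that had reads in blood). *Cnp*, an enzyme of the myelin membrane, had 320 CPM in brain and 168 in blood (log2 difference 0.95, adjusted p = 7.2e-05, and 0.0988 with spike-in scaling), while *Enpp2*, a lysophospholipase, and *Gjc3*, a gap junction protein, had 114 and 34.8 CPM in brain and 0 in blood. The summed oligodendrocyte list ran from 374 to 1040 CPM in brain and from 85.6 to 253 CPM in blood. Between GFPpos and GFPneg cells 0 genes of either list were called, with median averaged log2 differences of 0.41 for the 10 astrocyte and 0.52 for the 11 oligodendrocyte genes and 0.023 for all genes, which were 0.14, 0.3 and -0.43 with spike-in scaling.

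Markers of other brain cells were also above blood. All 6 tested genes of oligodendrocyte precursors were without a read in blood and were called higher, and the sum of the list was 2.31 to 306 CPM in brain and 0 to 0.209 CPM in blood. The most abundant were *Sox10*, a transcription factor of the lineage, with 27.4 CPM, the proteoglycan *Cspg4* with 16 and the receptor *Gpr17* with 6.67. Of 5 tested genes of neural progenitors and glioma cells, 4 were called higher, 3 of them without a read in blood (sum 1.85 to 158 against 0 to 23.6 CPM), among them the phosphatase *Ptprz1* and the proteoglycan *Bcan* with 12.2 and 6.53 CPM in brain and 0 in blood, but not *Fabp7* with 7.66 and 5.45 CPM (adjusted p = 0.423). The endothelial and mural list had 7 of 10 called higher, 5 of them without a read in blood (39.7 to 345 against 29.8 to 117 CPM), with the tight junction gene *Cldn5* at 18.7 CPM in brain and 0 in blood, *Itm2a* at 33.4 and 23.6 CPM (adjusted p = 0.0228) and *Flt1* at 28.6 and 28 CPM (adjusted p = 0.976). Both tested genes of ependyma and choroid plexus were without a read in blood and were called higher (6.01 to 237 CPM against 0), *Ttr* with 85.1 and *Folr1* with 1.98 CPM, while *Kl* with 0.955 CPM was not tested. Neuronal genes were close to blood, with 0 of 2 called and sums of 3.01 to 22.6 CPM in brain and 0 to 43.9 CPM in blood. *Nrgn* had 3.25 and 4.34 CPM (adjusted p = 0.825) and *Nsg2* 2.82 and 6.27 CPM (adjusted p = 0.661), while *Eno2* with 1.97 CPM in brain and 0 in blood was not tested.

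The microglia list had 10 of 10 genes called higher, 3 of them without a read in blood, with sums of 1990 to 9950 CPM in brain and 145 to 301 CPM in blood, among them *Tmem119* with 801 and 2.88 CPM and *Olfml3* with 603 and 0.252 CPM. The brain gate took cells with high CD45, a protein that is low on resting microglia, and the labels name the cells monocytes and macrophages. Where the reads of these microglia genes came from was not tested. Of the monocyte and macrophage list, 2 genes were called higher and 3 lower of 10, beside 25.8% and 13.8% of all genes. *Lyz2*, lysozyme, was lower with 9140 against 21900 CPM (adjusted p = 1.11e-05 in edgeR, and 0.399 with spike-in scaling). *Csf1r* had 3070 and 3190 CPM and *Cd68* 1340 and 1250. Of 17 tested genes of engulfment, 10 were called higher, 2 of them without a read in blood. The 3 called lower stood beside 13.8% of all genes, and the 10 beside 25.8%. The receptor tyrosine kinase *Axl* had 1040 CPM in brain and 74.9 in blood, the scavenger receptor *Msr1* 660 and 210 CPM, and the adaptor *Tyrobp* was lower with 1290 against 2200 CPM (adjusted p = 0.000104, and 0.847 with spike-in scaling). With spike-in scaling, 1 gene of the monocyte and macrophage list and 1 of the engulfment list were called lower. Between GFPpos and GFPneg cells, and between CCR2low and CCR2high macrophages, 0 genes of any of these lists were called. Between macrophages and monocytes the microglia list had 1 gene called higher, and the monocyte and macrophage list 1 higher and 3 lower.

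The glial genes did not rise and fall together over the 22 brain replicates. Spearman correlations between pairs of the 6 tested genes ran from -0.39 to 0.31 except for *Sparcl1* and *Mog* with 0.6. These values, like those that follow, are descriptions over libraries that share 4 mice and their depth. *Slc1a3* followed the summed microglia list (0.73, and 0.65 after each mouse's mean was removed). With the other astrocyte genes it had -0.02 over all replicates and 0.64 within mice. *Sparcl1* followed the endothelial and mural list (0.89, within mice 0.73) and also progenitor and glioma genes (0.89 and 0.45), oligodendrocyte precursor genes (0.85 and 0.48) and the other astrocyte genes (0.82 and 0.46). With the neuron list it had 0.46 and within mice 0.7, and with the other oligodendrocyte genes 0.57 and 0.6. *Mog* had 0.78 with the precursor list (0.52 within mice), 0.76 with the other astrocyte genes (0.4) and 0.71 with progenitor and glioma genes (0.51). With the endothelial and mural list it had 0.67 (0.4), and with the other oligodendrocyte genes 0.5 (0.54). *Gfap* had -0.42 with the microglia list (-0.41) and 0.35 with the other astrocyte genes (0.47). Its values with the ependymal and choroid plexus list and with the monocyte and macrophage list were also 0.35 (0.48 within mice for both). The summed microglia list was 4010 to 9950 CPM in CCR2low and 2630 to 5120 CPM in CCR2high macrophages, and its part in the *Slc1a3* levels was not tested.

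**Figure D4:**
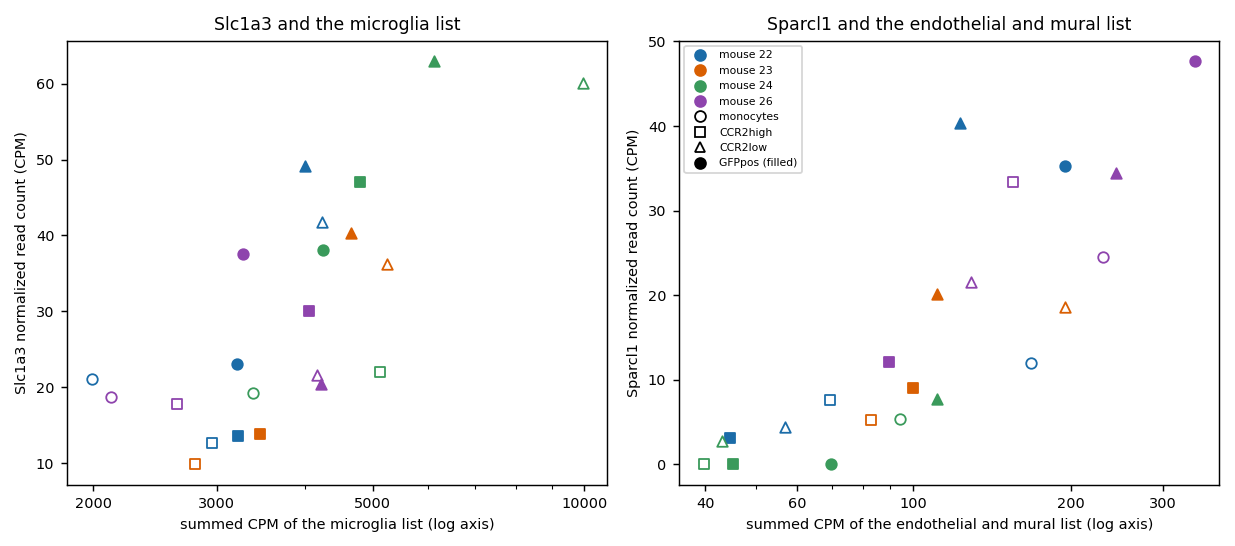
Normalized read count (CPM) of *Slc1a3* against the summed CPM of 10 microglia genes, and of *Sparcl1* against that of 10 endothelial and mural genes (horizontal log axes), in the 22 brain replicates; colors are mice, shapes are cell types and filled symbols are GFPpos. The Spearman correlations are 0.73 and 0.89, and the replicates of mouse 24 lie at the low end of *Sparcl1*, at 7.76 CPM or less.

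Over the same replicates, the genes with the pattern most like *Slc1a3* were *Cd34* and *Tspan7* (0.77 each) and *Agpat3* (0.75), as Spearman correlations of log2 CPM over 22 replicates. *Sparcl1* was most like *Cdsn* and *Esam* (0.93 each) and *Ppic* (0.92), *Gfap* like *2310022A10Rik* (0.76), *Cdc42se1* (0.72) and *Paqr5* (0.71), and *Mbp* like *Sbno2* (0.84), *Wwp2* (0.83) and *Becn1* (0.81). They were the 3 closest among the tested genes for each member with a median of at least 10 counts in brain.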

How the data were processed

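RNA of 8 sorted populations (30 libraries) was sequenced after poly-A cDNA synthesis with a kit that does not mark strand. The authors aligned reads with STAR, removed duplicates with Picard 1.8.4, and counted them per gene with HTSeq (intersection-strict) against a GENCODE annotation of GRCm38. The deposited values are whole-number counts per gene, without normalization. Reads that HTSeq matched to no annotated feature (up to 17.46% of a library) and 92 spike-ins did not enter library sizes or tests.

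The study's quality rule of 6000 genes with at least 5 reads removed 1 of 30 libraries, whose sample had a second one, and 2 passing libraries of another sample were summed, which gave 28 replicates. Counts were scaled by TMM, filtered by filterByExpr and tested in edgeR 4.0.16 (R 4.3.3) by quasi-likelihood, with the 8 populations in 1 fit. Adjusted p-values are Benjamini-Hochberg over all 11566 genes, called under 0.05. The fit was tested on simulated counts first. RPKM used exon lengths of GENCODE vM21. DESeq2 1.42.0, spike-in scaling, other filters, a replicate block by mouse and leaving out each replicate were alternatives.

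The number after PG in a sample's title was taken as its mouse. Deviations from the population means correlated in all 11 GFP pairs (0.116 to 0.674). Over all populations their median correlation was 0.136 for 86 pairs of the same mouse (-0.0971 to 0.674). For 256 pairs of different mice it was -0.0303 (-0.477 to 0.203), so the lower GFP pairs lay within that range. The numbers were used to pair the samples. Replicates of a population are different mice. The genes named are the 8 members, the 3 most abundant genes of each list and the 3 genes most like a member, except 1 that is not reported here. Members and lists were chosen with earlier results of these data known. Positions and sequences of *Aqp4* and *Mbp* are not reported here.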

Additional observations from a re-analysis of the deposited data

Results flagged for a closer look

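In groups of 4 replicates, 4 of 31 sets of values held 1 replicate whose gap to the next value was over 0.829 of the whole range (chance gives about 1 in 20 for continuous values, which does not apply to sets of zeros and a few reads). *Aqp4* was read in 1 of 4 replicates of GFPpos CCR2high macrophages, mouse 26, with 0.699 CPM from 3 reads (gap 1 of the range). It was also read in 1 of 4 replicates of GFPneg CCR2low macrophages, mouse 23, with 0.944 CPM from 4 reads (gap 1). In both *Aqp4* sets the other 3 replicates were at 0, so any read gives this gap. *Slc1a2* in GFPneg CCR2low macrophages had 7.4 CPM from 16 reads in mouse 24 and 1.1 CPM or less in the other mice (gap 0.851). *Mobp* in GFPneg CCR2high macrophages had 4.41 CPM from 7 reads in mouse 22 and 0.457 CPM or less in the others (gap 0.896).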

How the results depend on the processing

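Against blood, the number of members called was within 1.5 times of the reported one in 60 of 65 results from other settings. The 5 exceptions came from fits of the compared populations alone, which called 3 members in GFPneg monocytes, 2 in GFPpos monocytes, 3 in GFPneg CCR2high, 2 in GFPpos CCR2high and 2 in GFPneg CCR2low macrophages, and which tested no other member. The fitted differences from blood kept their direction in all 364 results from other settings and all 1161 that left out 1 replicate. For the 5 tested genes without a read in blood this was fixed in advance, since they could differ only upward. Only the results of *Mbp* could have turned. *Mbp* lost its call with spike-in scaling in GFPneg monocytes (adjusted p = 0.222), GFPneg CCR2high (0.113), GFPpos CCR2high (0.0756) and GFPpos CCR2low macrophages (0.143), *Mog* lost it in GFPneg monocytes with only the first library (0.0637), and *Slc1a2* gained one in GFPneg monocytes (0.0227) and GFPneg CCR2high macrophages (0.0185). The cause was not tested.

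Within the brain, where 0 members were called, directions turned in 12 of 312 results from other settings. With spike-in scaling, GFPpos against GFPneg monocytes gave -0.5 for *Slc1a2*, -0.51 for *Slc1a3*, -0.06 for *Sparcl1* and -1.19 for *Mbp*, GFPpos against GFPneg CCR2low macrophages 0.16 for *Slc1a2*, and the average over cell types -0.22 for *Mbp*. Macrophages against monocytes gave 0.03 for *Gfap*, 0.78 for *Slc1a2*, 0.43 for *Mbp* and 0.05 for *Mog*. With only the first library of each sample, *Mbp* in monocytes was -0.15.

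Leaving out 1 replicate at a time turned 24 of 996 results, and the values then ran over these ranges. For GFPpos against GFPneg monocytes *Slc1a2* ran from -4.8 to 4.16 and *Mbp* from -0.17 to 0.43. For CCR2high macrophages *Gfap* ran from -0.79 to 0.42, *Sparcl1* from -1.42 to 0.55 and *Mbp* from -0.39 to 0.12, and for CCR2low macrophages *Slc1a3* from -0.15 to 0.39. In the average *Gfap* ran from -0.27 to 0.13 and *Slc1a2* from -1.08 (without GFPpos monocytes of mouse 22) to 1.92. For macrophages against monocytes *Slc1a2* ran from -0.73 to 3.12 and *Mog* from -0.65 to 0.76, and for CCR2low against CCR2high *Slc1a2* from -0.34 to 0.59 and *Mbp* from -0.23 to 0.05. In the fit without GFPpos monocytes of mouse 22, that population was at 0 for *Slc1a2* and had no finite estimate. Values of *Slc1a2* from that fit that involve brain monocytes are therefore not effect sizes.

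With the mouse as a replicate block, the pairing turned *Slc1a2* between CCR2low and CCR2high macrophages to -0.08 and changed no call of a member. The fitted difference of brain from blood was then -2.66 for *Mbp*. The fitted values of 9.4 for *Slc1a3* and 6.96 for *Gfap* are not effect sizes, since both genes had 0 reads in blood. Across all genes, 4574 were called between brain and blood and 2448 with spike-in scaling, and between macrophages and monocytes 275, against 9 with spike-in scaling and 529 in the compared populations alone. Few reads limit *Slc1a2*, *Aqp4*, *Mobp* and *Mog*, which had medians of a few reads or none per brain replicate.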
